A study of Cavia porcellus with 34 samples.

Results

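The mitochondrial calcium uniporter complex was followed across 3 generations of guinea pigs after prenatal treatment of the founding mothers with a synthetic glucocorticoid. Its members were the rows of the F1, F2 and F3 tables with the symbols MCU, CCDC109B, SMDT1, MICU2, MICU3 and MCUR1. All 6 were present in each table, among 12114 genes in F1, 12207 in F2 and 12068 in F3, and all 6 passed the filter on low values (a mean of at least 10). The family was chosen by the differences between treated and control animals in these same tables. The differences of its members are therefore given as a description, with standard errors and without p-values.

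RNA was measured in tissue punched from the paraventricular nucleus of the hypothalamus (PVN), in juvenile females of the paternal line at postnatal day 40. By the study's methods the punches could take in neighbouring hypothalamus. Pregnant Dunkin-Hartley dams (F0) had received repeated courses of betamethasone (sGC, labelled Beta) or saline vehicle (Veh, labelled Control). F1 animals were exposed in utero. F2 and F3 animals descended from them through the father, with untreated mates and undisturbed pregnancies. F1 and F2 each had 5 Veh and 5 sGC animals and F3 had 6 of each, every animal from its own litter by the study's methods. The values are normalized counts, with each generation normalized in its own table, so levels are not compared between generations.

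The uniporter is the channel through which calcium enters the mitochondrial matrix. MCU forms the pore in the inner membrane, and CCDC109B, now usually called MCUB, is a paralogue that enters the same pore and lowers its conductance. SMDT1 (EMRE) is a small membrane protein that the channel needs in order to conduct and that links the pore to its gatekeepers. MICU2 and MICU3 are calcium-sensing gatekeepers in the intermembrane space, of which MICU3 is known mainly from the nervous system. MCUR1 is an inner membrane protein implicated in uniporter assembly. In neurons, calcium that enters by this route stimulates the dehydrogenases of the matrix and buffers calcium near active synapses.

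The values of a sample summed to between 15573233 and 21935501 in F1, between 15645962 and 19435104 in F2 and between 18692048 and 18977539 in F3. Of the genes tested, 78 of 11874 had an adjusted p under 0.05 in F1 (0.657%, with 72 higher in sGC animals), 0 of 11965 in F2 (0.0%) and 6 of 11866 in F3 (0.0506%), all by limma with Benjamini-Hochberg adjustment. With samples scaled by size factors the F1 count was 2058, of which 1006 were higher. At an unadjusted p under 0.05 the shares were 13.6%, 11.7% (1395 genes) and 13.1%. Over all genes the log2 fold change had a median of 0.07 for F1, -0.08 for F2 and -0.0016 for F3. The 10 marker genes of PVN neuroendocrine cells, among them AVP, OXT, CRH, SIM1 and OTP, were present in each table and above 0 in every animal.

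**Figure D1:**
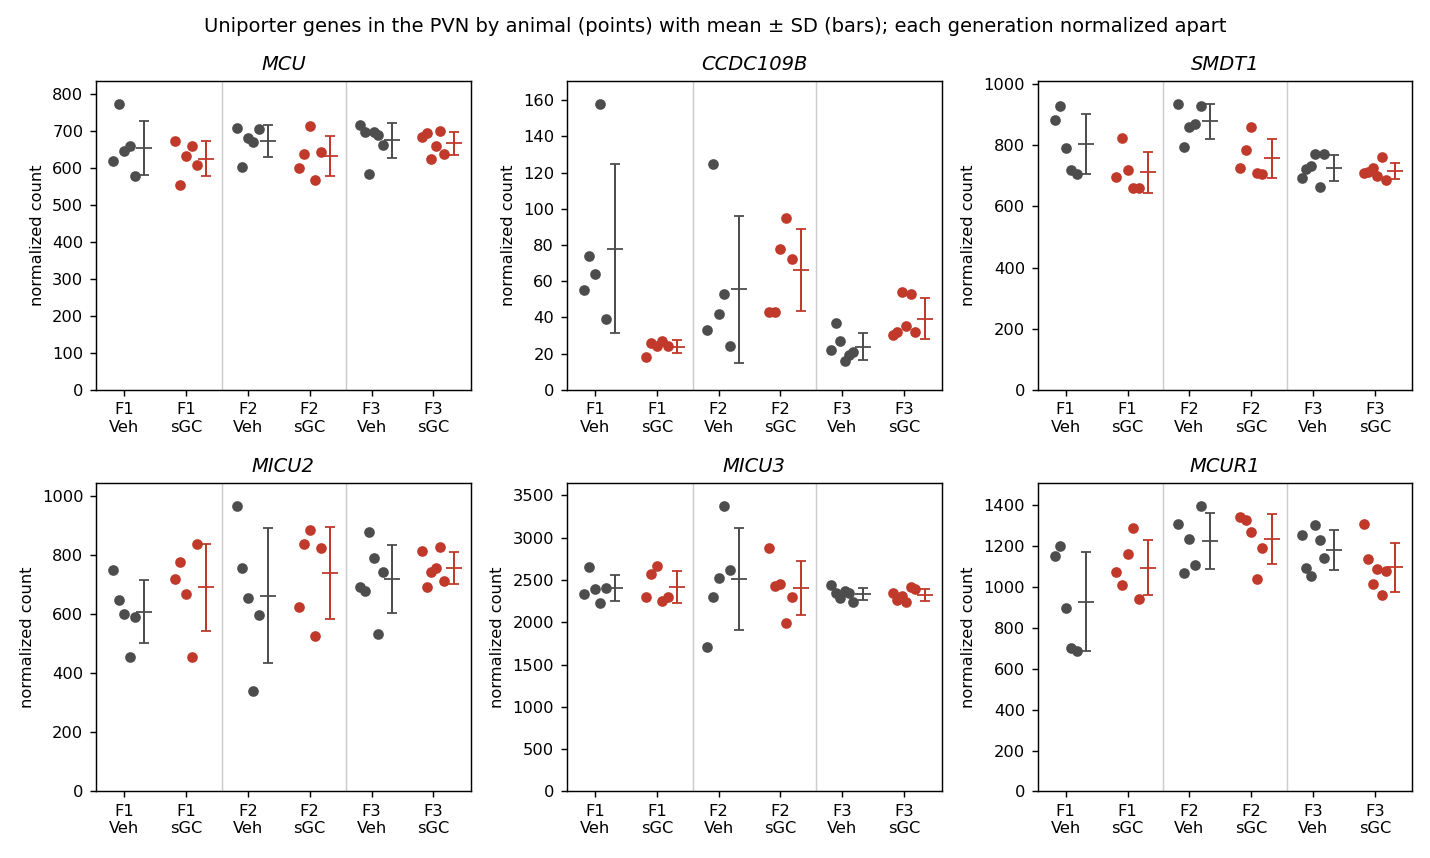
Normalized count (vertical axis, linear and starting at 0) of the 6 uniporter genes in every animal (points), with mean ± SD (bars) for Veh and sGC groups of F1, F2 and F3. CCDC109B of the 5 F1 sGC animals sits between 18 and 27, below all 5 F1 Veh animals, while the 2 groups of each other gene overlap in each generation.

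CCDC109B was the member that differed most between sGC and Veh animals, in F1 and in F3, and in opposite directions. In F1 its normalized counts were 55, 74, 64, 158 and 39 in Veh animals and 18, 26, 24, 27 and 24 in sGC animals. The groups did not overlap, and the highest Veh value, 158 in SGM15, stood well above the next, 74. The means were 78.0 ± 46.5 (SD, n = 5) and 23.8 ± 3.49 (SD, n = 5), and the log2 fold change was -1.52 (SE 0.29), which puts Veh at 2.87-fold of sGC. Only 0.253% of all genes were without overlap and lower in sGC in F1, and 2.04% were without overlap in either direction. Of the 6 members, 1 was without overlap in F1, a count that comes from the same contrast that chose them. Without SGM15 the log2 fold change of CCDC109B was -1.23, and without any other single animal it was between -1.72 and -1.43.

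In F2 the CCDC109B counts were 33, 125, 42, 53 and 24 in Veh animals and 43, 43, 78, 95 and 72 in sGC animals. All 5 sGC values lay within the Veh range, whose top was set by 1 animal, SGM23. In F2 2.4% of all genes were without overlap, and no member was. The means were 55.4 ± 40.4 (SD, n = 5) and 66.2 ± 22.8 (SD, n = 5), with a log2 fold change of 0.42 (SE 0.38). This difference was close to its own error, and it was 0.77 without SGM23 and 0.19 without SGM29.

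In F3 the counts were 22, 37, 27, 16, 19 and 21 in Veh animals and 30, 32, 54, 35, 53 and 32 in sGC animals. All 6 sGC animals were above the Veh mean on the log scale, but 4 of them lay within the Veh range, because the Veh animal SGM14 reached 37. The means were 23.7 ± 7.47 (SD, n = 6) and 39.3 ± 11.1 (SD, n = 6), with a log2 fold change of 0.72 (SE 0.21), which corresponds to 1.64-fold. No member was without overlap in F3, against 1.21% of all genes. The 2 sGC animals sequenced in the second batch were at 53 and 32. In the first batch alone the log2 fold change was 0.66. With batch as a covariate it had to be the same, because no Veh animal with values was in the second batch. These are low counts, and the mean over the F3 animals was 31.5.

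MCU itself, the pore, hardly differed between groups. In F1 it was at 617, 772, 644, 658 and 577 in Veh animals and at 671, 554, 630, 659 and 607 in sGC animals, with a log2 fold change of -0.06 (SE 0.12). In F2 it was at 708, 601, 679, 669 and 704 against 599, 637, 712, 567 and 642, with a log2 fold change of -0.09 (SE 0.08). In F3 it ran from 584 through a median of 692.5 to 715 in Veh animals and from 623 through 670.5 to 699 in sGC animals, with a log2 fold change of -0.02 (SE 0.05). The groups overlapped in all 3 generations, and the 3 differences were about as large as their errors or smaller.

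The count of CCDC109B per 100 of MCU within each animal is unaffected by any single scaling factor per sample. It is no ratio of molecules, because transcript lengths were not used. In F1 it was 8.91, 9.59, 9.94, 24.01 and 6.76 in Veh animals and 2.68, 4.69, 3.81, 4.10 and 3.95 in sGC animals. The F1 groups again did not overlap. In F2 it had a median of 6.19 in Veh and 10.96 in sGC animals, within overlapping ranges of 3.41 to 20.8 and 6.75 to 16.8. In F3 it ran from 2.30 through 3.13 to 5.32 in Veh animals and from 4.39 through 5.18 to 8.67 in sGC animals. The Veh animals SGM14 and SGM17 overlapped with the sGC group.

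SMDT1, the essential small subunit, was somewhat lower in sGC animals in F1 and F2 and alike in F3. In F1 its counts were 884, 929, 791, 720 and 707 in Veh animals and 696, 824, 720, 661 and 660 in sGC animals, with a log2 fold change of -0.18 (SE 0.12). In F2 they were 936, 796, 861, 870 and 930 against 727, 784, 860, 710 and 706, with a log2 fold change of -0.22 (SE 0.08). All 5 F2 sGC animals were below the Veh mean on the log scale, although 1 of them, at 860, lay within the Veh range. In F3 the Veh range was 665 to 773 with a median of 726.5, the sGC range was 688 to 763 with a median of 711, and the log2 fold change was -0.02 (SE 0.04). When samples were scaled to a common total or by size factors or quantiles, its log2 fold changes in F1 ran from -0.26 to -0.23. Their SEs were 0.056 to 0.059, so these differences were large beside their errors. On these scales 16.4% to 17.6% of all F1 genes had an adjusted p under 0.05 by limma. In F2 the same scalings made the difference smaller, from -0.15 to -0.13 (SE 0.049 to 0.057). The median over all F2 genes was itself -0.08 on the deposited values.

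**Figure D2:**
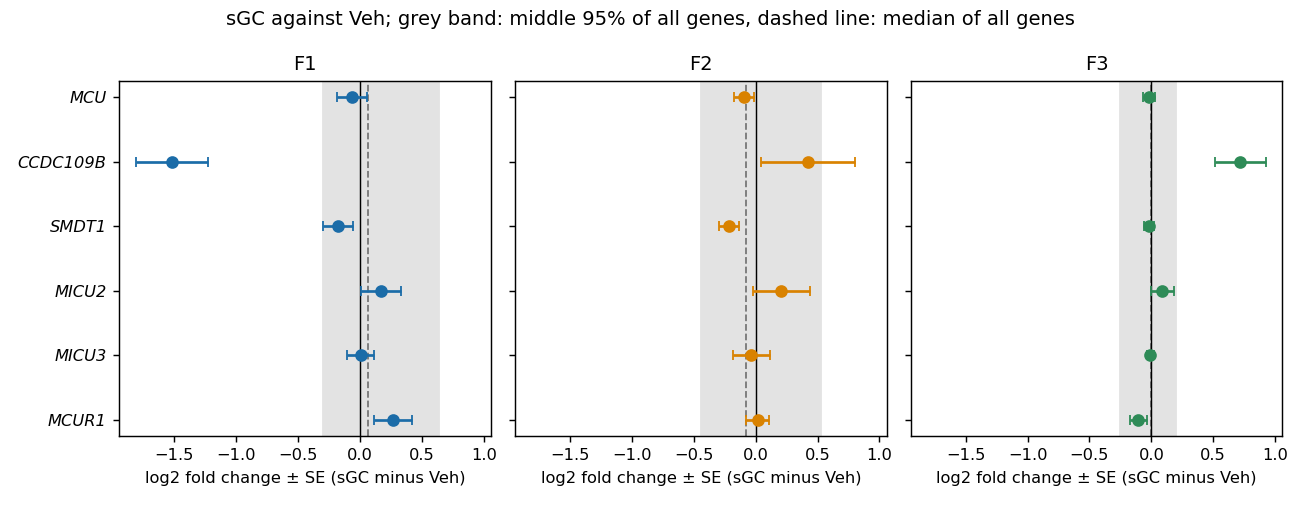
Log2 fold change of sGC against Veh with its SE (horizontal axis) for the 6 uniporter genes in F1, F2 and F3, over the middle 95% of all genes tested (grey band) and their median (dashed line). CCDC109B lies below the band in F1 at -1.52 and above it in F3 at 0.72, and the other 5 members lie within it in all 3 generations.

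The gatekeepers MICU2 and MICU3 showed no difference beyond the spread between animals. MICU2 in F1 was at 749, 647, 600, 456 and 590 in Veh animals and at 718, 776, 669, 454 and 837 in sGC animals, with a log2 fold change of 0.17 (SE 0.16). In F2 it was at 967, 756, 653, 339 and 598 against 624, 837, 884, 525 and 823, with a log2 fold change of 0.21 (SE 0.23). The low value of 339 belonged to SGM28, and without this animal the F2 log2 fold change was -0.01. In F3 MICU2 ran from 533 to 876 in Veh animals and from 692 to 827 in sGC animals, with a log2 fold change of 0.09 (SE 0.09).

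MICU3 in F1 was at 2340, 2654, 2391, 2233 and 2402 in Veh animals and at 2296, 2572, 2666, 2251 and 2298 in sGC animals. In F2 it was at 1711, 2302, 2526, 3380 and 2621 against 2875, 2427, 2457, 1992 and 2296. In F3 it ran from 2237 to 2445 in Veh animals and from 2237 to 2417 in sGC animals. The groups overlapped almost completely, and the log2 fold changes were 0.01 (SE 0.11) in F1, -0.03 (SE 0.15) in F2 and -0.01 (SE 0.03) in F3.

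MCUR1 was higher in F1 sGC animals on average. Its F1 counts were 1152, 1201, 898, 700 and 688 in Veh animals and 1073, 1010, 1161, 1287 and 940 in sGC animals, with a log2 fold change of 0.27 (SE 0.15). All 5 sGC animals were above the Veh mean on the log scale, but 4 of them lay within the wide Veh range. In F2 MCUR1 was at 1307, 1066, 1237, 1108 and 1398 against 1344, 1329, 1270, 1040 and 1192, with a log2 fold change of 0.01 (SE 0.09). In F3 it ran from 1056 to 1302 in Veh animals and from 959 to 1307 in sGC animals, with a log2 fold change of -0.11 (SE 0.07). The F1 and F3 averages therefore pointed in opposite directions, each by less than 2 of its standard errors in the main fit. With a common total, size factors or quantiles the F1 log2 fold change was 0.21 (SE 0.097), 0.21 (SE 0.095) and 0.19 (SE 0.095). With single animals left out it ran from 0.17 to 0.37 in F1 and from -0.16 to -0.07 in F3. Some of these values exceeded 2 of their standard errors.

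By count, 3 of the 6 members were higher and 3 lower with sGC in F1, again 3 and 3 in F2, but 2 and 4 in F3. The median log2 fold change over the 6 was -0.03 in F1, -0.01 in F2 and -0.01 in F3. Apart from CCDC109B, the members spanned -0.18 to 0.27 in F1, -0.22 to 0.21 in F2 and -0.11 to 0.09 in F3. In F1 CCDC109B, at -1.52, lay outside the span of the other members, in the same contrast that chose the family.

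The members also differed in how much animals of the same group varied. The pooled standard deviation of CCDC109B on the log2 scale was 0.54 in F1, 0.72 in F2 and 0.39 in F3. It was larger than that of 82.2%, 93.7% and 84.6% of genes with a mean count within 2-fold of its own. MCU was steadier, with 0.13, 0.11 and 0.09. MICU3 had a pooled standard deviation of 0.10 in F1 and 0.04 in F3, below all but 0.272% and 27.4% of genes near its level, but of 0.28 in F2. MICU2 was among the variable genes near its level in all 3 generations, with 0.30, 0.46 and 0.19, above 89.2%, 97.4% and 95.1% of them.

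Across all 32 animals, taken as deviations from their own group means, the members did not follow one another as a block. MCU correlated with MCUR1 (Pearson's r = 0.55) and SMDT1 with MCUR1 (r = 0.50), but with size factors applied these values were -0.05 and -0.44. CCDC109B correlated negatively with MCUR1 (r = -0.46 as deposited, -0.53 with size factors) and not appreciably with MCU (r = -0.15 and 0.23). Among 10542 other genes ranked by likeness to CCDC109B, MCU came 3729th and MCUR1 9885th. Genes of 1 animal share its library and depth, so these values are descriptions of the libraries.

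MICU2 and MICU3 had r = -0.42 over the 32 animals. This rested on 2 F2 Veh animals with opposite profiles. SGM28 had MICU2 at 339 and MICU3 at 3380, and SGM22 had them at 967 and 1711. Without these 2 animals r was 0.20. The genes most like MICU3 and MICU2 were looked up after their values were seen. For MICU3 they were DIRAS2 (r = 0.90), GPR137C (r = 0.89), RIMS2 (r = 0.86), ENPP5 (r = 0.86) and SCN2A (r = 0.86), of which DIRAS2 and ENPP5 were also in the top 5 with size factors. For MICU2 they were ALDH3B2 (r = 0.77), ACAA2 (r = 0.77), PMP22 (r = 0.76), SUCLG2 (r = 0.75) and FOXN2 (r = 0.74), of which ACAA2, an enzyme of mitochondrial fatty acid oxidation, was also in the top 5 with size factors.

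**Figure D3:**
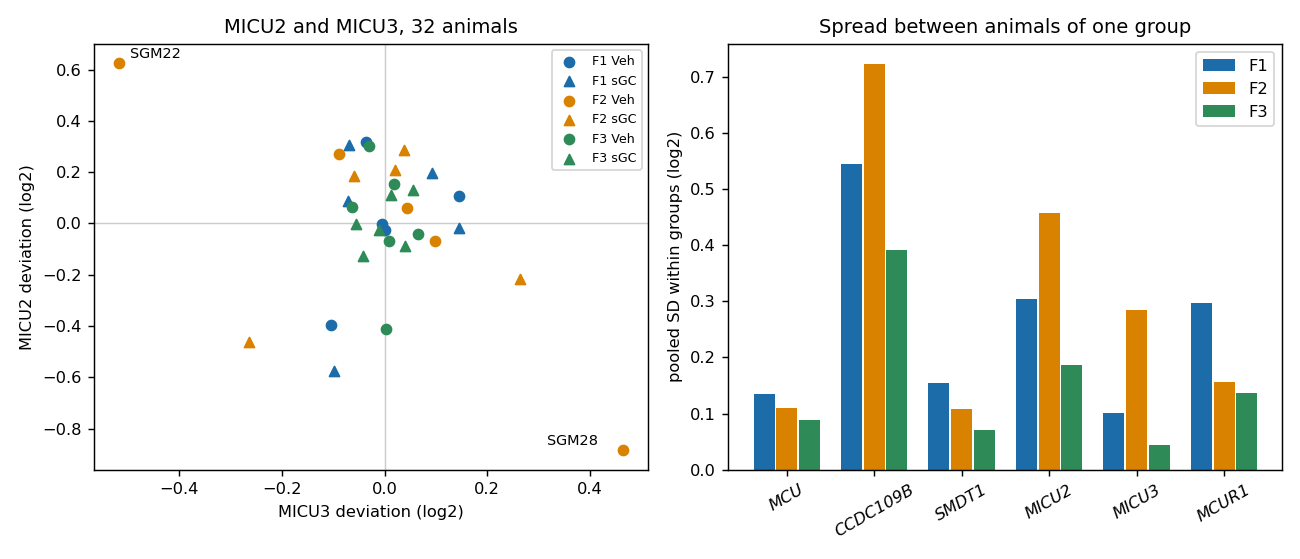
Left, deviation of MICU2 (vertical) against MICU3 (horizontal) from the group mean in log2 units for 32 animals, coloured by generation with circles for Veh and triangles for sGC. Right, pooled standard deviation within groups in log2 units for the 6 members, with CCDC109B highest in each generation and SGM22 and SGM28 at opposite corners of the left panel.

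The genes most like MCU were FZD9 (r = 0.87), a Wnt receptor, PIBF1 (r = 0.84), CC2D2A (r = 0.83), a ciliary transition zone protein, ZRANB3 (r = 0.82), an annealing helicase, and IL6ST (r = 0.81), the shared receptor of interleukin-6 family cytokines. With size factors FZD9 and PIBF1 remained in the top 5, with r = 0.81 and 0.74. KDM3B, NR1D2 and WDR36 took the other places.

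The genes most like CCDC109B were TCF7L2 (r = 0.83), LHX9 (r = 0.83), NT5DC3 (r = 0.83), CD247 (r = 0.77) and PROKR1 (r = 0.76). TCF7L2 and LHX9 encode transcription factors known from the thalamus, a neighbour of the hypothalamus. CD247 is a signalling chain of the T cell receptor, and PROKR1 a prokineticin receptor. On the deposited scale the gene most opposite to it was LHX1 (r = -0.83), a transcription factor known in the hypothalamus from the suprachiasmatic nucleus. LHX1 was looked up after its values were seen. With size factors NPTXR came first (r = 0.88), followed by NT5DC3, TCF7L2, LHX9 and RNF220, and the most opposite gene was FGF14 (r = -0.87).

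For TCF7L2 the correlation with CCDC109B was 0.91 within F1 (n = 10), 0.82 within F2 (n = 10) and 0.73 within F3 (n = 12). Spearman's rho over the 32 animals was 0.80, and r was 0.84 without the 2 animals farthest from the TCF7L2 median. For LHX9 the values within F1, F2 and F3 were 0.92, 0.80 and 0.78, rho was 0.79, and r without the 2 farthest animals was 0.81. With size factors r was 0.85 for TCF7L2 and 0.84 for LHX9. For CD247 rho was only 0.54, and r was 0.58 without its 2 farthest animals.

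**Figure D4:**
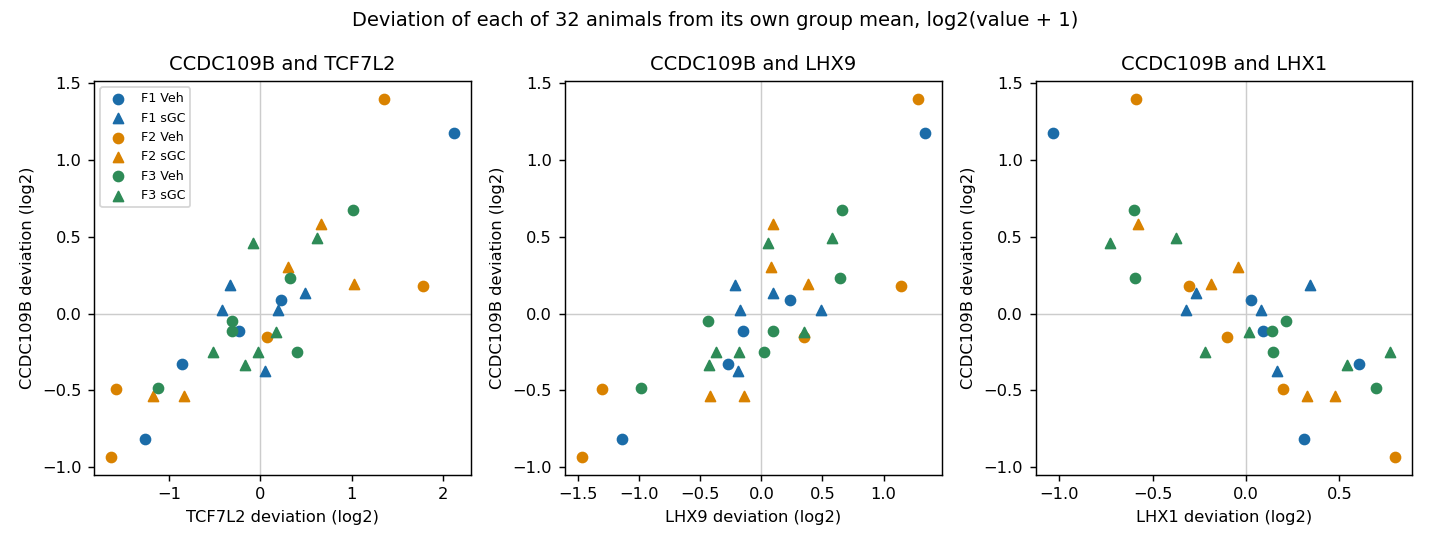
Deviation of CCDC109B (vertical) against that of TCF7L2, LHX9 and LHX1 (horizontal) from the group mean, in log2 units, for 32 animals coloured by generation, with circles for Veh and triangles for sGC. CCDC109B goes up with TCF7L2 and LHX9 (r = 0.83 each) and down with LHX1 (r = -0.83).

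The group values of TCF7L2, LHX9 and LHX1 are given beside those of CCDC109B. In F1 TCF7L2 was at 693, 1467, 1070, 5450 and 523 in Veh animals and at 489, 664, 354, 376 and 542 in sGC animals, with a log2 fold change of -1.41 (SE 0.38). LHX9 was at 156, 222, 170, 478 and 85 in F1 Veh animals and at 79, 97, 127, 78 and 80 in sGC animals, with -1.05 (SE 0.29). SGM15, the Veh animal with the most CCDC109B, was the highest for both, and without it the log2 fold changes were -0.88 and -0.72. LHX1 went the other way in F1, at 422, 283, 296, 135 and 345 in Veh animals and at 642, 476, 605, 727 and 458 in sGC animals, with 1.04 (SE 0.22). Its F1 groups did not overlap, as for 2.04% of all genes, and without SGM15 it had 0.78. The adjusted p in F1 by limma was 0.025 for LHX1, 0.085 for TCF7L2 and 0.095 for LHX9.

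In F2 the TCF7L2 log2 fold change was 0.07 (SE 0.65), between -0.34 and 0.52 with single animals left out, and its counts ranged widely in both groups, from 430 to 4606 in Veh animals and from 624 to 2872 in sGC animals. The other genes most like or opposite to CCDC109B had F2 log2 fold changes of 0.51 (LHX9, SE 0.48), -0.20 (NT5DC3, SE 0.19), -0.13 (CD247, SE 0.29), 0.36 (PROKR1, SE 0.21) and -0.10 (LHX1, SE 0.25). SGM23, the F2 Veh animal with the most CCDC109B, was at 3419 for TCF7L2 and had the highest LHX9 value of its group, 397. In F3 TCF7L2 ran from 211 through 474 to 928 in Veh animals and from 472 through 655.5 to 1045 in sGC animals, with a log2 fold change of 0.56 (SE 0.29). All 6 F3 sGC animals were above the Veh mean for TCF7L2 on the log scale. LHX9 had 0.32 (SE 0.26) and LHX1 -0.26 (SE 0.26) in F3. In the first batch alone LHX1 had -0.02, beside 0.58 for TCF7L2 and 0.36 for LHX9. NT5DC3, CD247 and PROKR1 had 0.09 (SE 0.08), 0.28 (SE 0.14) and 0.05 (SE 0.16) in F3. Their F1 values were -0.39 (SE 0.17), -0.83 (SE 0.24) and -0.63 (SE 0.27). The part of these genes in the CCDC109B values was not tested. In tissue of mixed cells, fewer cells of a type and less RNA per cell cannot be told apart.

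Markers of other cells gave these values beside CCDC109B. The summed level of the 10 PVN neuroendocrine markers ran from 101488 to 228009 in F1 Veh animals and from 29915 to 198288 in F1 sGC animals, with a median log2 fold change of -0.67. None of the 10 had an adjusted p under 0.05 in F1, and 6 were lower at an unadjusted p under 0.05. In F2 and F3 the median log2 fold changes of this list were 0.24 and -0.02. Microglial markers, of which 8 of 11 were in the F1 table, summed to 4183 to 5954 in F1 Veh and 4649 to 8069 in F1 sGC animals. Endothelial markers, 8 of 8, summed to 4418 to 7059 and 5400 to 9900. At an unadjusted p under 0.05, 4 of the 8 endothelial and 2 of the 8 microglial markers were higher in F1. The share over all F1 genes was 13.6% in either direction. In F2 microglial markers, 7 of 11, summed to 3353 to 4828 in Veh and 2913 to 4163 in sGC animals. Endothelial markers in F2 summed to 5444 to 8867 and 4923 to 6125. At an unadjusted p under 0.05, 4 of the 8 endothelial and 0 of the 7 microglial markers were lower in F2, beside 11.7% of all genes in either direction. In F3 microglial markers summed to 3974 to 4841 in Veh and 4336 to 4927 in sGC animals, and endothelial markers to 8272 to 8979 and 8596 to 9217. In each of these F3 lists 1 of 8 was higher at an unadjusted p under 0.05, beside 13.1% of all genes. At that threshold 3 of 6 mural markers were higher and 3 of 6 neuronal markers lower in F3, with medians of 0.19 and -0.08. None had an adjusted p under 0.05 by limma (smallest adjusted p = 0.077 and 0.22). In F1 1 of 3 mural and 1 of 6 neuronal markers were higher at the unadjusted threshold. In F2 1 of 3 mural and 0 of 6 neuronal markers were lower. In F2 the summed oligodendrocyte markers ran from 132156 to 239473 in Veh and from 69845 to 112760 in sGC animals, without overlap. All 9 were lower at an unadjusted p under 0.05, none with an adjusted p under 0.05 by limma (smallest adjusted p = 0.062). Oligodendrocyte markers in F1, 8 of 9, summed to 39209 to 48917 in Veh and 38285 to 105655 in sGC animals. Their median log2 fold change was 0.31 in F1, -0.81 in F2 and 0.09 in F3. SMDT1 was lower on average in both F1 and F2. Markers of oligodendrocyte precursors, 4 of 5, summed to 5940 to 8757 in F2 Veh and 4008 to 5486 in F2 sGC animals, and 3 of the 4 were lower at an unadjusted p under 0.05 (smallest adjusted p = 0.055 by limma). No marker of these lists was at 0 in any animal. The part of these markers in the CCDC109B and SMDT1 values was not tested.

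The other genes of mitochondrial calcium handling were tested with all genes, and none had an adjusted p under 0.05 in any generation by limma on the deposited values. Of 33 tested in F1, 5 were higher and 1 lower at an unadjusted p under 0.05. Of 32 in F2, 0 were higher and 3 lower, and of 32 in F3, 4 were higher and 2 lower. Over all genes the shares at this unadjusted threshold were 13.6%, 11.7% and 13.1% in either direction. At an adjusted p under 0.05 they were only 0.657%, 0.0% and 0.0506%. The lack of calls therefore does not set this list apart from all genes. Their medians on the log2 scale were 0.01, -0.12 and 0.03, beside 0.07, -0.08 and -0.0016 for all genes.

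Among regulators and assembly factors of the uniporter, of which 4 were tested, SLC25A23, a calcium-sensing ATP-Mg/phosphate carrier, stood at 0.15 on the log2 scale in F1 (SE 0.12, adjusted p = 0.64 by limma) and -0.23 in F2 (SE 0.07, adjusted p = 0.24 by limma). C2ORF47, the older symbol of the assembly factor MAIP1, had -0.16 in F1 (SE 0.14) and 0.10 in F3 (SE 0.06). GHITM, a proton and calcium exchanger of the inner membrane, had -0.14 in F2 (SE 0.08), and SPG7, a protease subunit of the inner membrane, had -0.03 in F3 (SE 0.03).

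Of 7 genes for other transport across the mitochondrial membranes, UCP2, an uncoupling protein, had the smallest unadjusted p in F1. Its counts were 120 ± 17.7 (SD, n = 5) in Veh and 187 ± 59.4 (SD, n = 5) in sGC animals, with a log2 fold change of 0.59 (SE 0.19, adjusted p = 0.16 by limma). In F3 it was at -0.23 (SE 0.08, adjusted p = 0.27 by limma). The outer membrane channels VDAC3 (-0.16 in F1, 0.05 in F3) and VDAC2 (-0.17 in F2) and the LETM1-like protein LETMD1 (-0.13 in F2) differed by less.

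The calcium-sensitive proteins of mitochondria numbered 12 tested genes in F1 and 11 in F2 and F3. PDP1, the calcium-activated pyruvate dehydrogenase phosphatase, was at 1931 ± 480.4 (SD, n = 5) in F1 Veh and 1424 ± 105 (SD, n = 5) in F1 sGC animals, with a log2 fold change of -0.41 (SE 0.14, adjusted p = 0.17 by limma). OGDH, a matrix dehydrogenase stimulated by calcium, had 0.19 in F1 (SE 0.12). In F2 the aspartate/glutamate carrier SLC25A12 had -0.17 (SE 0.10) and RHOT1, which couples mitochondria to transport along microtubules, had -0.15 (SE 0.08). In F3 the ATP-Mg/phosphate carriers SLC25A24 and SLC25A25 had 0.14 (SE 0.05) and -0.07 (SE 0.03).

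Among 10 genes of contacts with the endoplasmic reticulum, the inositol trisphosphate receptors ITPR1 and ITPR2, which release the calcium that mitochondria take up, were higher in F1 sGC animals without passing the test. ITPR1 had a log2 fold change of 0.39 (SE 0.14, adjusted p = 0.18 by limma) and ITPR2 of 0.42 (SE 0.16, adjusted p = 0.21 by limma). In F2 ITPR1 had -0.23 (SE 0.11) and ITPR3 -0.61 (SE 0.28, adjusted p = 0.43 by limma). In F3 the mitophagy receptor FUNDC1 had 0.10 (SE 0.02, adjusted p = 0.12 by limma) and the tethering protein PDZD8 -0.09 (SE 0.04).

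The F1 count for these genes depended on scaling. With the samples scaled by size factors, 6 of the 33 had an adjusted p under 0.05 by limma (18.2%), beside 17.3% of all genes. The share was near that of all genes. PDZD8 (0.23) and UCP2 (0.53) were higher, and C2ORF47 (-0.22), VDAC3 (-0.23), PDP2 (-0.18) and FUNDC1 (-0.24) were lower in sGC animals on this scale.

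Genes of mitochondrial content, such as matrix enzymes, import receptors and chaperones, were counted as a measure of how much mitochondrial transcript the tissue held. None of the 12 tested in F1, 14 in F2 and 12 in F3 had an adjusted p under 0.05 by limma. The shares over all genes were 0.657%, 0.0% and 0.0506%. At an unadjusted p under 0.05 there were 0, 1 and 1, beside 13.6%, 11.7% and 13.1% of all genes. Their median log2 fold changes were -0.03, -0.08 and 0.02. CS, citrate synthase, had 0.18 in F1 (SE 0.12), POLG, the mitochondrial DNA polymerase, had 0.13 in F1 (SE 0.12), -0.16 in F2 (SE 0.08) and -0.08 in F3 (SE 0.04), TOMM22 of the import complex had -0.14 in F2 (SE 0.06), and AIFM1 had -0.09 in F3 (SE 0.04).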

How the data were processed

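RNA-seq libraries (TruSeq V2, which does not mark strand) were sequenced on an Illumina HiSeq. The authors aligned reads to the cavPor3 assembly with Tuxedo tools (TopHat2 in the submitters' processing notes) and counted them per gene with GenomicAlignments. They corrected F3 for batch with ComBat before a residual normalization with RUVSeq. The values the authors deposited are these normalized counts rounded to whole numbers, a score rather than reads. Calling a singular value under 10% of the largest close to 0, 1 direction of variation was missing from the F1 values, 1 from F2 and 2 from F3, so spreads between animals are those left after that step. The tables also hold the authors' fold change, dispersion, likelihood ratio and p-value columns, which were not used. Of 34 samples in the labels, 32 have values. The 2 re-sequenced F3 Veh libraries were not analysed here.

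Each generation was fitted alone in R 4.3.3 with lmFit and a trended eBayes of limma 3.58.1 (two-sided), on log2(value + 1). Genes needed a mean of at least 10, p-values were adjusted by Benjamini-Hochberg over all genes tested, and the threshold was 0.05. A fold change on this scale understates changes of low genes. Tested on simulated data, the fit recovered 90.0%, 93.5% and 99.0% of 200 changed genes of log2 fold change 1 or -1 in F1, F2 and F3. Alternatives were other scalings, pseudocounts of 0.5 and 5, no filter, a mean of at least 50, each animal left out, and, in F3, the first batch alone or batch as a covariate.

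The members and all lists were chosen with earlier results of these data known. Named genes were the members, per list and generation the 2 genes with the smallest unadjusted p, genes under the threshold, and the 5 genes most like CCDC109B and MCU by Pearson's r of deviations from group means (mean of at least 50 in each table). Of the cell type marker lists, the PVN neuroendocrine, microglial, endothelial, mural, neuronal, oligodendrocyte and oligodendrocyte precursor ones are reported. In the RefSeq gene table of mCavPor4.1, 5 of the 6 symbols were found, CCDC109B being listed there as MCUB. As that build differs from the files', no coordinates, lengths or sequences are given. Depth in reads is unknown. Of the other genes of mitochondrial calcium handling, 1 is not reported here and is left out of the list counts.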

Additional observations from a re-analysis of the deposited data

Results flagged for a closer look

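CCDC109B differed in direction between generations. Every F1 sGC animal lay below the F1 Veh mean, with a log2 fold change of -1.52 (SE 0.29), and every F3 sGC animal lay above the F3 Veh mean, with 0.72 (SE 0.21). The difference between the generations was not tested. On the log2 scale no animal stood apart from its group by Dixon's criterion in 48 groups of 5 or 6 animals. These were the 6 members, TCF7L2 and LHX9, by generation and treatment. On the counts themselves SGM15 did stand far above its group for TCF7L2, at 5450 with the next F1 Veh animal at 1467.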

How the results depend on the processing

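The F1 count of genes with an adjusted p under 0.05 (78, of which 72 were higher in sGC animals) became 1943 with equal sample sums (1026 higher), 2058 with size factors (1006 higher) and 2084 with quantile normalization (917 higher), and the count among other mitochondrial calcium genes went from 0 to 6, 6 and 7. In F2 it went from 0 to 17 with a mean of at least 50 and to 42 with quantile normalization, and in F3 from 6 to 3 with batch as a covariate and to 2 in the first batch alone. Leaving out each animal gave 15 (without SGM15) to 474 (without SGM7) genes in F1, 0 to 114 (without SGM28) in F2 and 1 to 15 (without SGM18) in F3. The cause was not tested. The 347 alternative values of the members' log2 fold changes each stayed within 1 standard deviation between animals of the reported one. For most of them this was fixed in advance. The filter settings and a replicate block cannot change a log2 fold change, and leaving out 1 animal cannot move it that far. Only the scalings, the pseudocounts and the F3 batch settings could have exceeded this bound. CCDC109B stayed below 0 in all 18 alternatives in F1 and above 0 in all 18 in F2 and 21 in F3, where a mean of at least 50 removes it. The size factors and the removal of the 2 farthest animals in the correlations of CCDC109B were added after seeing the data. The comparison of members' levels per length was not run, since no lengths were used here. The labels give the animals compared no shared replicate numbers, and each came from its own litter. The column names do number them alike, but the deviations of same-numbered animals correlated between -0.54 and 0.31 over 16 pairs, and 3 of 16 sGC animals correlated best with the Veh animal of their own number, so the numbers were not taken as pairs. A replicate block by these numbers, added after seeing the data, gave 146 genes with an adjusted p under 0.05 in F1, 6 in F2 and 0 in F3.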
